A study of Mus musculus with 79 samples.

Results

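The 9 genes of the mouse HoxD cluster, Hoxd1, Hoxd3, Hoxd4, Hoxd8, Hoxd9, Hoxd10, Hoxd11, Hoxd12 and Hoxd13, were followed through RNA profiles of sorted cells from caudal ends of embryos. They were taken by symbol from 23983 gene symbols in each of 3 expression tables, and all 9 were found in every table. The study concerns neuro-mesodermal progenitors, cells of the caudal embryo that carry both the mesoderm factor T (Brachyury) and the neural factor Sox2 and give rise to spinal cord and paraxial mesoderm. The first table (sort table) holds 3 wild-type (WT) libraries of Theiler stage 12 (TS12), sorted as T+, T+ Sox2+ or Sox2+. The second (knockout table) holds T+ cells of WT and T knockout (T KO, labelled T2J/2J) embryos at TS12 and TS13, and Tbx6+ cells of TS14 titled WT and KO. The third holds 53 single cells sorted as T+ Sox2+ from WT embryos of TS13. Per the labels' protocols, all embryos were made from embryonic stem cells by tetraploid complementation and tissue was pooled before sorting, so a library is a pool of embryos. Every bulk group has 1 library. The T KO libraries and both Tbx6+ libraries carry the strain label C57BL/6J, and the remaining bulk libraries C57BL/6N, so strain label and T genotype cannot be told apart.

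Hox genes encode homeodomain transcription factors that give cells along the body axis their position. In each cluster the genes lie in the order in which they are used: those numbered low switch on early and reach far forward, those numbered high switch on late and stay near the tail. The caudal factors Cdx1, Cdx2 and Cdx4 are known activators of Hox genes in the growing trunk, and Gdf11 is a signal that promotes the switch to the high-numbered genes at the trunk to tail transition. Hoxd9 to Hoxd13 are also known for patterning limbs and genitalia.

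The cluster covers 96.9 kb of chromosome 2 (chr2:74668225-74765142 in GRCm38.p6, the RefSeq assembly of build mm10). All 9 genes are on the plus strand, and Hoxd13 lies at the low-coordinate end and Hoxd1 at the other. Evx2, another homeobox gene, lies 6705 bases beyond Hoxd13, and Mtx2, which encodes a mitochondrial membrane protein, 60670 bases beyond Hoxd1. The annotated spans of Hoxd10 and Hoxd11 overlap, as do those of Hoxd3 and Hoxd4, and the antisense RNA Hoxd3os1 covers the start of Hoxd3. Values of these genes are uncertain to the extent that fragments were shared between them. Whether counting used strand is not given in the sources used here.

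Promoter windows of 250 bases before the transcription start were found in RefSeq (GRCm38.p6) for all 9 genes, as 10 windows, since Hoxd11 has 2. They were searched on both strands for TTTATG, a core that Cdx factors bind, TCACACC, part of the T-box element bound by T and Tbx6, and CTTTGT, a core that Sox factors bind. The 3 motifs were chosen after the sequences had been looked at, so their matches are a description only. TTTATG was found in Hoxd3, Hoxd4 and Hoxd11, and 10.8% of 32851 promoter windows of the same length hold it. TCACACC was found in Hoxd9 alone of the 9, against 3.33% of windows, and CTTTGT in Hoxd3 and Hoxd11, against 16.5%. No match overlapped another. The sequences given are those of Hoxd4, whose level was higher in both T KO libraries than in WT, Hoxd9, the gene with the T-box match, and Hoxd10, Hoxd11 and Hoxd13, which were lower in the T KO libraries and higher in the Tbx6+ library titled KO. Capitals mark a match on either strand. The windows are chr2:74721728-74721977 for Hoxd4, chr2:74697513-74697762 for Hoxd9, chr2:74691641-74691890 for Hoxd10, chr2:74679308-74679557 for Hoxd11 and chr2:74667975-74668224 for Hoxd13, all plus strand and written 5′ to 3′.
Hoxd4: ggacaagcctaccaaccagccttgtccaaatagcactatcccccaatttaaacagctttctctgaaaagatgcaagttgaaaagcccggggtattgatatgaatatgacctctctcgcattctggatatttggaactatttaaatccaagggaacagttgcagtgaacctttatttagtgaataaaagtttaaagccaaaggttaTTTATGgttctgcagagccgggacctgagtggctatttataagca
Hoxd9: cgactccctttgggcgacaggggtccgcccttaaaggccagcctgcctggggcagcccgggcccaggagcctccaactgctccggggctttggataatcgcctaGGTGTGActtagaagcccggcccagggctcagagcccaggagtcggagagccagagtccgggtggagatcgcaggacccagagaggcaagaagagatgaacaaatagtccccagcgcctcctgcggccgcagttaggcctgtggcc
Hoxd10: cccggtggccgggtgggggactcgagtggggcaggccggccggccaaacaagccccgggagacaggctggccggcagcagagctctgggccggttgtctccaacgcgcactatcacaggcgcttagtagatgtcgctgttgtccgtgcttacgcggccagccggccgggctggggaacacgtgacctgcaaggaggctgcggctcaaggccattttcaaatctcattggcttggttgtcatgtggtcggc
Hoxd11: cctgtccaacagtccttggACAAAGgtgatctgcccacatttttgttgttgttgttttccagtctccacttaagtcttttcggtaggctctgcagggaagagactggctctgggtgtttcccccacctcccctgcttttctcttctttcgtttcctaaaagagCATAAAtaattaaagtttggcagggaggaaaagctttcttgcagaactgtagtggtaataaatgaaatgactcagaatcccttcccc
Hoxd13: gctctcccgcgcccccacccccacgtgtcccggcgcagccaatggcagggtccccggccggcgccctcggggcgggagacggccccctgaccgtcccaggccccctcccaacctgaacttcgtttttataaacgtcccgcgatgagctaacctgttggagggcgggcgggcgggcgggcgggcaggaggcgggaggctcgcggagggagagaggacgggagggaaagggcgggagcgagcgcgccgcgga
Between 65.2% and 74.4% of the bases in the Hoxd9, Hoxd10 and Hoxd13 windows are G or C. The Hoxd4 window and the Hoxd11 window shown hold 40.4% and 44.8%. The other Hoxd11 window, chr2:74682073-74682322, holds 60.4% and has no match to any of the 3 motifs.

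Some facts of the libraries touch several results. Levels are in FPKM, the number of fragments scaled to transcript length in kilobases and to mapped fragments in M, so levels of different genes can be compared within a library. Depth, estimated from the spacing of low values, was 20.8 to 43.5 M fragments. T itself stood at 69.8 and 76.4 FPKM in the WT T+ libraries of the knockout table and at 4.61 and 3.32 in the T KO libraries, at TS12 and TS13 in that order. Tbx6 stood at 31.5 FPKM in the Tbx6+ library titled WT and at 10.2 in the one titled KO. The source names of that pair give the opposite genotypes to the titles, so both libraries are named by their titles, and each direction drawn from them rests on the titles. The T+ WT TS12 library of the knockout table had 1050 of 1484 olfactory, vomeronasal and taste receptor genes above 0, against 24 to 37 in each of the other 8 libraries. Their median there was 0.0952 FPKM and their 95th percentile 0.442 FPKM.

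The label T+ WT TS12 occurs in both bulk tables, and the HoxD genes differed between its 2 libraries. Hoxd10 stood at 37.5 FPKM in the sort table and at 1.01 in the knockout table, Hoxd11 at 23.9 and 0.621, and Hoxd13 at 18.2 and 0.991. Hoxd1 and Hoxd4 were close, with Hoxd1 at 31.9 and 38.6 FPKM and Hoxd4 at 32.5 and 38.3. The difference of log2(FPKM + 1), sort table minus knockout table, was 4.26 for Hoxd10, above 99.9% of the 8414 genes with at least 5 FPKM in either library, where the median was 0.07. Hoxc10, a paralogue of Hoxd10, differed by 6.60. The libraries differ in kit, number of cells and table, and these cannot be told apart. Whether the 2 libraries are of the same stage, as labelled, was not tested, and each TS12 value rests on its label. Differences below are therefore taken within a table only.

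**Figure D1:**
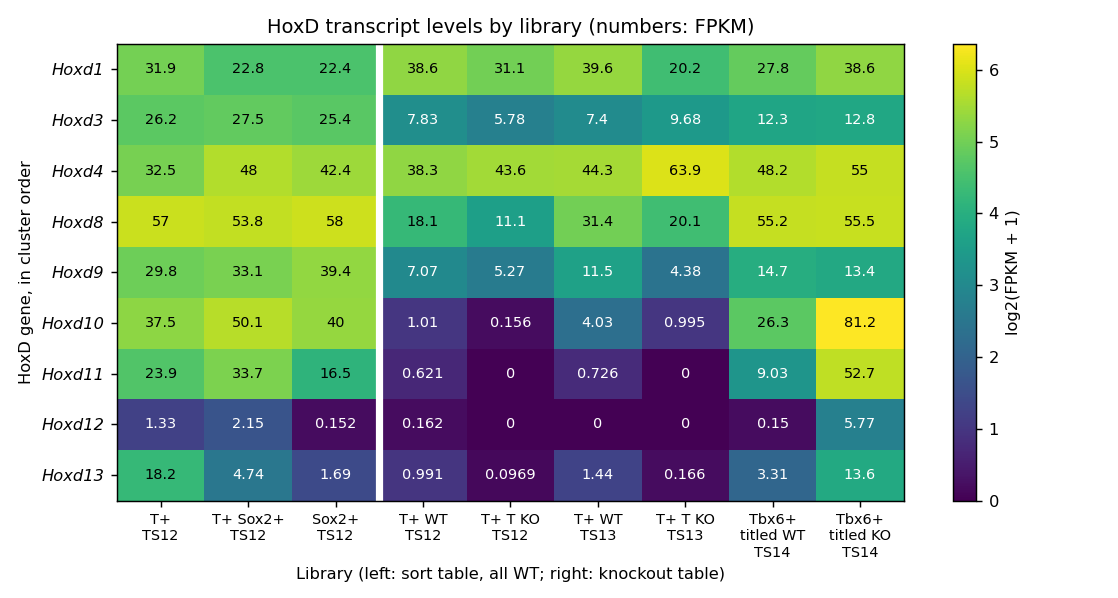
FPKM of each HoxD gene (rows, in cluster order) in the 9 bulk libraries (columns, 1 library per group), coloured by log2(FPKM + 1), with the white line between the tables. Hoxd10 and Hoxd11 stand at 16.5 FPKM or more in the sort table, and at 4.03 or less in the 4 T+ columns right of the line.

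Hoxd8 was the HoxD gene with the highest median over the 9 bulk libraries, 53.8 FPKM, followed by Hoxd4 at 44.3, Hoxd1 at 31.1 and Hoxd10 at 26.3. Hoxd9 and Hoxd3 followed at 13.4 and 12.3 FPKM, then Hoxd11 at 9.03, Hoxd13 at 1.69 and Hoxd12 at 0.152. These medians cross tables and give an order only. Without replicates it is unknown which neighbours in that order differ beyond the spread between embryos. Hoxd8 ranged from 11.1 to 58.0 FPKM and Hoxd4 from 32.5 to 63.9. Hoxd10 had the widest range, from 0.156 to 81.2 FPKM, and was the leading HoxD gene in the Tbx6+ library titled KO. Among the 4 T+ libraries with or without T, Hoxd4 led in 3 and Hoxd1 in the other.

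The 3 sorted fractions of TS12 differed in the genes at the Hoxd13 end. Hoxd13 stood at 18.2 FPKM for T+, 4.74 for T+ Sox2+ and 1.69 for Sox2+. Hoxd12 stood at 1.33, 2.15 and 0.152 FPKM in the same order, and Hoxd11 at 23.9, 33.7 and 16.5. Hoxd13 was thus highest in T+ cells, and Hoxd11 and Hoxd12 in T+ Sox2+ cells. The other members stood closer together. Hoxd10 was at 37.5, 50.1 and 39.96 FPKM, and Hoxd8, which in these libraries led the cluster, at 57.0, 53.8 and 58.0. Hoxd9 was at 29.8, 33.1 and 39.4 FPKM and Hoxd4 at 32.5, 48.0 and 42.4. Hoxd3 varied little, at 26.2, 27.5 and 25.4 FPKM, and Hoxd1 was highest in T+ cells, at 31.9, 22.8 and 22.4.

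The limit for calling a difference was 1 on the log2(FPKM + 1) scale, which is 2-fold on that scale, in genes that reached 1 FPKM in either library. All 9 HoxD genes passed that minimum in the sort table. In T+ Sox2+ against Sox2+ cells, 2 of 9 were higher, Hoxd12 by 1.45 and Hoxd13 by 1.09, against 1.81% of 10970 genes. Hoxd12 passed the minimum only through T+ Sox2+ cells. None of the 9 was lower, against 1.47% of genes. Hoxd11 lay just short of the limit, at 0.99. In T+ Sox2+ against T+ cells, none was higher, against 1.75% of genes, and 1 was lower, Hoxd13 by -1.74, against 2.59%. In T+ against Sox2+ cells, 2 were higher, Hoxd13 by 2.83 and Hoxd12 by 1.01, against 4.53% of 11151 genes. Hoxd12 passed the minimum only through T+ cells here, so it could only be higher. None was lower there, against 3.78%. The 3 comparisons share their libraries and are not independent. There is 1 library per group, so none has a replicate check.

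Over all 9 HoxD genes, the median difference was 0.18 in T+ Sox2+ against Sox2+ cells, with -0.01 over all genes tested. It was 1.04 for the 4 genes Hoxd10 to Hoxd13 and 0.02 for the 5 genes Hoxd1 to Hoxd9. Markers of other tissues moved with these fractions. The summed FPKM of 9 paraxial mesoderm markers was 462 in T+, 472 in T+ Sox2+ and 103 in Sox2+ cells, with none at 0. That of 8 neural markers was 9.73, 23.5 and 86.9 FPKM in the same order, with Neurog2 alone at 0, in T+ cells. The summed FPKM of 10 blood and endothelium markers was 12033 in T+, 115 in T+ Sox2+ and 232 in Sox2+ cells, and none of these markers was at 0 in any of the 3 fractions. The sum of 9 lateral and intermediate mesoderm markers, a list that includes Hand1, Foxf1 and Tbx4, was 196, 30.3 and 10.7 FPKM in that order, with Gata4 alone at 0, in Sox2+ cells. The part of these 4 lists in the HoxD values was not tested. In bulk samples, fewer cells of a type and less RNA per cell cannot be told apart.

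In T+ cells of the T knockout, Hoxd1, Hoxd8, Hoxd9, Hoxd10, Hoxd11 and Hoxd13 had lower values than in WT at both stages, and Hoxd4 had higher values. Hoxd10 stood at 1.01 FPKM in WT and 0.156 in T KO at TS12, and at 4.03 and 0.995 at TS13. Hoxd9 stood at 7.07 and 5.27 FPKM at TS12, and at 11.5 and 4.38 at TS13. Hoxd8 stood at 18.1 and 11.1 FPKM at TS12, and at 31.4 and 20.1 at TS13. For these 3 genes the T KO library was the lower one at each stage. Hoxd8 and Hoxd10 at TS13 in T KO, however, stood near their TS12 WT levels.

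Hoxd13, the last gene of the cluster, stood at 0.991 FPKM in WT and 0.0969 in T KO at TS12, and at 1.44 and 0.166 at TS13. Hoxd11 was listed at 0 in both T KO libraries and at 0.621 and 0.726 FPKM in the WT libraries of TS12 and TS13. Hoxd12 was listed at 0 in 3 of the 4 libraries and at 0.162 FPKM in T+ WT TS12. That last value lies below the 95th percentile of the receptor genes in the same library, and the values of Hoxd11 and Hoxd13 there lie above it. Hoxd1, at the opposite end, stood at 38.6 FPKM in WT and 31.1 in T KO at TS12, and at 39.6 and 20.2 at TS13. Hoxd4 was the exception in direction, with 38.3 and 43.6 FPKM at TS12 and 44.3 and 63.9 at TS13. Hoxd3 was lower in T KO at TS12, at 5.78 against 7.83 FPKM, and higher at TS13, at 9.68 against 7.40.

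At TS12, 6 of 9 HoxD genes passed the minimum of 1 FPKM. None was 2-fold higher in T KO, against 0.998% of 10918 genes, and none was 2-fold lower, against 1.55%. The count depends on the control library. Against T+ WT TS13 in place of T+ WT TS12, a comparison chosen after seeing the data that mixes stage with genotype, 3 were lower, against 1.76% of 10877 genes. They were Hoxd8, Hoxd10 and Hoxd13, and the latter 2 passed only through WT. At TS13, 7 of 9 passed. None was higher, against 1.58% of 10945 genes, and 3 were lower, against 2% of genes: Hoxd10 by -1.33, Hoxd9 by -1.21 and Hoxd13 by -1.06. Hoxd10 and Hoxd13 passed only through the WT library, so among genes that passed they had to be lower in T KO. With a minimum of 5 FPKM only 1 of the 3 was left, and with a pseudocount of 5 none was. Hoxd1, at -0.94, lay just short of the limit. The median over all 9 genes, with no minimum, was -0.38 at TS12 and -0.79 at TS13, against 0.03 and -0.03 over all genes tested.

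The 4 T+ libraries allow 1 test, limma with stage and genotype as terms, which leaves 1 residual degree of freedom. A small p-value there means that the mean genotype difference over both stages was large against a variance partly borrowed from all genes. It need not mean like effects at TS12 and TS13. Hoxd1 differed by -0.30 and -0.94 at these stages and had p = 0.00603 (limma, before adjustment). Such a p-value does not measure variation among embryos. Of the 7 HoxD genes tested, none rose and none fell at an adjusted p of 0.05 (limma, Benjamini-Hochberg over 11268 genes), against 0.568% of genes that rose and 0.79% that fell. Before adjustment, 6 of 7 had p under 0.05 in limma, as did 17 of 25 HoxA, HoxB and HoxC genes and 12.4% of all genes. Hoxd10 and Hoxd13, among the 6, entered the fit only through WT libraries, so that count is a description. Hoxd8 came nearest, with a log2 difference of -0.64 (SE 0.151, limma adjusted p = 0.0876), and its adjusted p ran from 0.0661 to 0.661 over the alternative settings. The difference was -1.07 for Hoxd10 (SE 0.283, limma adjusted p = 0.130), -0.79 for Hoxd9 (SE 0.222, limma adjusted p = 0.158) and -0.96 for Hoxd13 (SE 0.313, limma adjusted p = 0.223). It was -0.62 for Hoxd1, 0.35 for Hoxd4 and -0.02 for Hoxd3. None of these passed the threshold.

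By sign, 6 of the 7 HoxD genes tested had lower values in T KO in this fit. Hoxd10 and Hoxd13 entered it only through WT libraries, which fixed their sign, so the tally is a description. Of 25 HoxA, HoxB and HoxC genes, 20 had higher values and 5 lower, and the 2 that passed the threshold, Hoxb9 (0.75, limma adjusted p = 0.0497) and Hoxc6 (0.78, limma adjusted p = 0.0379), rose. Among the paralogues of Hoxd8 and Hoxd9, Hoxc8, Hoxb8, Hoxa9 and Hoxc9 had values of 0.51, 0.38, 0.57 and 0.67, of the opposite sign to Hoxd8 and Hoxd9. Hoxa10, Hoxa11 and Hoxc10, the 3 other genes numbered 10 to 13 that were tested, had -0.97, -0.62 and -0.72, the same sign as Hoxd10 and Hoxd13. Hoxa11, too, reached 1 FPKM only in a WT library, so no weight rests on that shared sign. No difference between clusters was tested. Beside these values, the summed FPKM of 9 paraxial mesoderm markers was 158 in WT and 23.6 in T KO at TS12, and 152 and 15.8 at TS13, with Mesp2 at 0 in both T KO libraries. The sum of 9 lateral and intermediate mesoderm markers was 124 and 92.2 FPKM at TS12, and 118 and 62.5 at TS13, with none at 0. The sum of 8 neural markers was 13.4 FPKM in WT and 18.7 in T KO at TS12, and 18.4 and 43.3 at TS13. Olig2 and Nkx6-1 were at 0 in both T KO libraries. The neural markers did not move together. Of 5 past the minimum at TS12, 1 was 2-fold higher in T KO and none lower, against 0.998% and 1.55% of genes. At TS13, 3 of 5 were higher and 1 was lower, against 1.58% and 2% of genes. Sox1, among the 3, passed only through T KO, and Hes5, the 1 lower, only through WT. Sox2 stood at 10.2 and 14.9 FPKM at TS12, and at 11.99 and 43.5 at TS13. The part of these markers in the HoxD values was not tested.

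**Figure D2:**
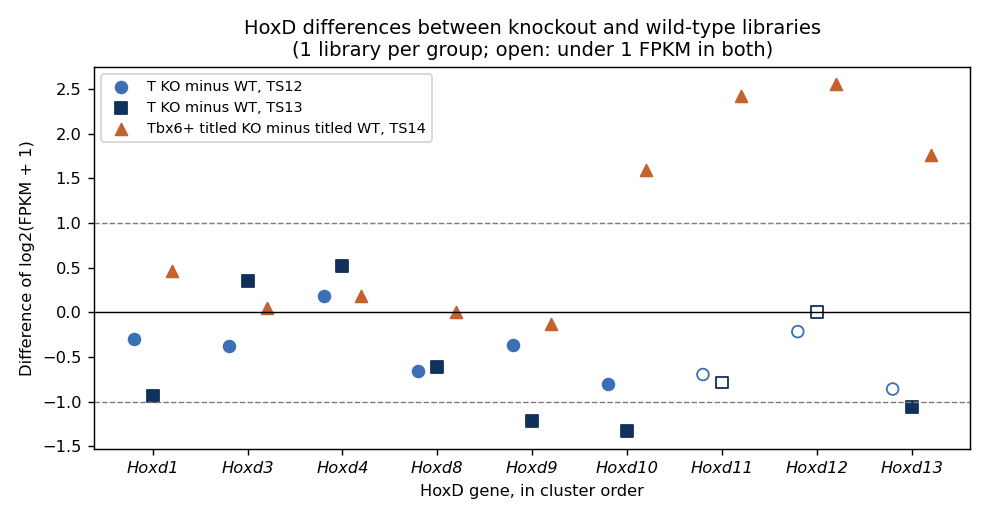
Difference of log2(FPKM + 1) between knockout and wild-type libraries for each HoxD gene in cluster order, with 1 library per group. Circles and squares are T KO minus WT at TS12 and TS13, triangles are the Tbx6+ pair by its titles, open symbols are genes under 1 FPKM in both libraries, and dashed lines mark 2-fold. The triangles of Hoxd10 to Hoxd13 lie between 1.59 and 2.56 and those of Hoxd1 to Hoxd9 between -0.13 and 0.46.

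From TS12 to TS13 in WT T+ cells, 7 of 9 HoxD genes passed the minimum. Of them 1 was 2-fold higher, Hoxd10 by 1.32, from 1.01 to 4.03 FPKM, against 0.943% of 10927 genes. None was lower, against 0.696%. Hoxd8 and Hoxd9 were higher at TS13 by 0.76 and 0.63, short of 2-fold. In T KO cells, with 5 of 9 genes past the minimum, none was higher, against 0.975% of 10867 genes, and none was lower, against 1.23%. Hoxd8 was higher at TS13 by 0.80 there. Hoxd10 stood under 1 FPKM at both stages in T KO, at 0.156 and 0.995 FPKM, so it had no count in that comparison. The WT comparison shares its libraries with the T KO comparisons above.

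The Tbx6+ pair of TS14 showed a break within the cluster, between Hoxd9 and Hoxd10. Hoxd10 stood at 26.3 FPKM in the library titled WT and 81.2 in the library titled KO, Hoxd11 at 9.03 and 52.7, and Hoxd13 at 3.31 and 13.6. Hoxd12 stood at 0.1499 and 5.77 FPKM. All 4 were higher in the library titled KO. The 5 genes from Hoxd1 to Hoxd9 differed by less than 2-fold, and Hoxd1 was furthest apart. Hoxd8 stood at 55.2 and 55.5 FPKM, Hoxd3 at 12.3 and 12.8, and Hoxd9 at 14.7 and 13.4. Hoxd4 stood at 48.2 and 55.0 FPKM and Hoxd1 at 27.8 and 38.6.

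All 9 passed the minimum in this pair. Of them 4 were 2-fold higher in the library titled KO, Hoxd12 by 2.56, Hoxd11 by 2.42, Hoxd13 by 1.76 and Hoxd10 by 1.59, against 3.02% of 10661 genes. None was lower, against 1.87%. Hoxd12 passed only through the library titled KO. The ratio of FPKM was 3.09 for Hoxd10, 5.83 for Hoxd11 and 4.11 for Hoxd13. The count of 4 was the same under each alternative pseudocount, minimum and scaling. Among HoxA, HoxB and HoxC genes numbered 10 to 13, 5 of the 7 past the minimum were also 2-fold higher, and none of 22 numbered 1 to 9 was. Hoxc12, 1 of those 5, passed only through the library titled KO. Hoxa10 stood at 25.6 and 60.4 FPKM, Hoxa11 at 5.75 and 22.8, and Hoxc10 at 34.5 and 76.3.

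Markers differed in this pair too. The summed FPKM of 9 paraxial mesoderm markers was 410 in the library titled WT and 101 in the library titled KO, with Mesp2 at 0 in the latter. That of 10 blood and endothelium markers was 22.4 and 262 FPKM, with Slc4a1 and Gata1 at 0 in the library titled WT. These markers did not move together. Of 9 past the minimum, 4 were 2-fold higher in the library titled KO and 2 lower, against 3.02% and 1.87% of genes. The 4 were Hba-x, Hbb-bh1, Hbb-y and Slc4a1, which passed only through that library, and the 2 were Kdr and Etv2. Etv2 passed only through the library titled WT, so it could only be lower. Hbb-y stood at 0.0472 and 175 FPKM, and Kdr at 12.8 and 2.11. Lateral and intermediate mesoderm markers summed to 57.5 and 18.9 FPKM, and notochord markers to 31.9 and 12.04, with none at 0. Not all notochord markers moved with their sum. Noto stood at 19.9 and 5.58 FPKM, and Nog at 2.19 and 3.53. T, which was not the gene sorted on here, stood at 166 and 471 FPKM, and Sox2 at 4.70 and 42.3. The 8 neural markers, a list without Sox2, summed to 7.29 and 4.64 FPKM. They did not move together. Of 3 past the minimum, none was 2-fold higher and none was lower, against 3.02% and 1.87% of genes. Nkx6-1 was at 0 in the library titled WT and Olig2 in the one titled KO. The part of these in the HoxD values was not tested, and there is 1 library of each kind.

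As a share of all HoxD transcripts by summed FPKM, Hoxd10 to Hoxd13 made up 31.3% in T+, 32.9% in T+ Sox2+ and 23.7% in Sox2+ cells of the sort table. In T+ cells of the knockout table the share was 2.47% in WT and 0.260% in T KO at TS12, and 4.41% and 0.972% at TS13. In the Tbx6+ pair it was 19.7% in the library titled WT and 46.6% in the one titled KO. The share was thus lower in T KO than in WT at each stage and higher in the Tbx6+ library titled KO. In the T+ pairs it rests on low values. Hoxd10 to Hoxd13 summed to 2.78 FPKM in WT and 0.253 in T KO at TS12, and to 6.20 and 1.16 at TS13. The WT library of TS12 is also the one with 1050 of 1484 receptor genes above 0. Genes 10 to 13 of HoxA and HoxC had the same order within each of the 3 pairs of WT and KO libraries. HoxB, where Hoxb13 is the only such gene and stayed under 1 FPKM, did not. Its share was 0.0301% in WT and 0.289% in T KO at TS12, and 0% and 0.0607% at TS13. In both Tbx6+ libraries it was 0%. The Tbx6+ and T+ libraries differ in sorted population and stage, which cannot be told apart.

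**Figure D3:**
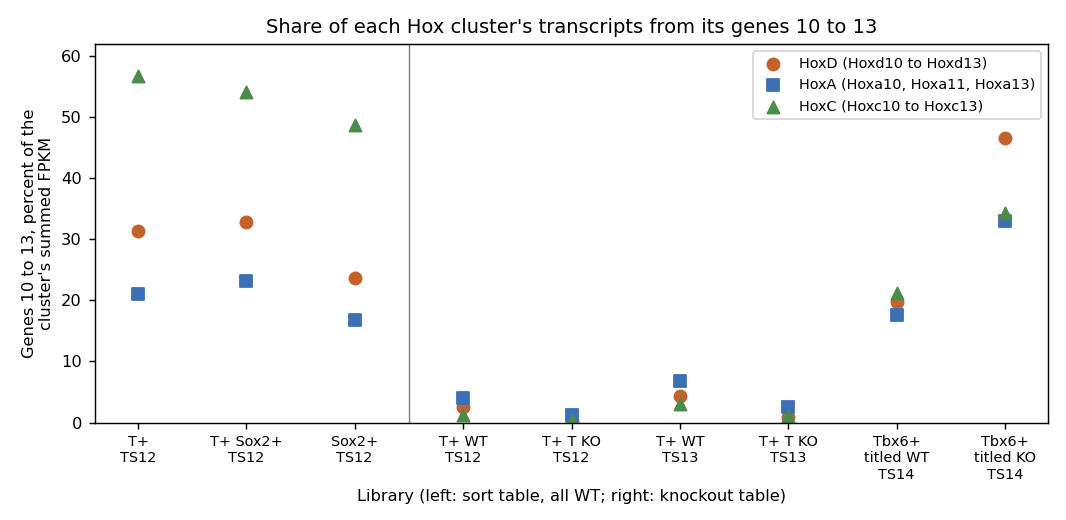
Percent of each cluster's summed FPKM that came from its genes numbered 10 to 13, for HoxD, HoxA and HoxC (vertical axis), in the 9 bulk libraries (horizontal axis, 1 library per group, with the line between the tables). The HoxD points of the 4 T+ libraries right of the line lie at or below 4.41%, and that of the Tbx6+ library titled KO lies at 46.6%.

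Neighbours and candidate regulators were read from lists. Their counts stand beside shares over all genes of 12.4% with p under 0.05 before adjustment in limma, and of 3.02% higher and 1.87% lower in the Tbx6+ library titled KO. The annotated span of the lncRNA Haglr lies 84 bases from that of Hoxd1, on its low-coordinate side. Haglr stood between 12.4 and 15.3 FPKM in the sort table and between 5.56 and 6.50 in T+ cells of the knockout table. It stood at 6.04 and 10.4 FPKM in the Tbx6+ libraries titled WT and KO. Evx2 was at or below 0.315 FPKM in each bulk library. Of the 7 neighbours tested with limma, none rose and none fell (1 had p under 0.05 before adjustment), and none was 2-fold apart in the Tbx6+ pair. Of the 3 caudal factors, none passed the limma threshold (0 before adjustment), and 1 was 2-fold higher in the Tbx6+ library titled KO. Of 8 Hox cofactors of the TALE class tested, which bind DNA with Hox proteins, none passed the limma threshold (3 before adjustment), and 3 were 2-fold lower in the Tbx6+ library titled KO. Of 12 Polycomb and trithorax genes, whose products keep Hox clusters silent or active, none passed (1 before adjustment). Of 9 axial signal genes, none rose and 3 fell in limma (7 had p under 0.05 before adjustment), against 0.568% and 0.79% of genes. In the Tbx6+ library titled KO, 4 of these 9 were 2-fold higher and 1 was lower, and their summed FPKM was 159 in the library titled WT and 473 in the one titled KO.

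In the 53 single T+ Sox2+ cells of TS13, Hoxd1 to Hoxd9 were found in most cells and Hoxd10 to Hoxd13 in few. T was at 1 FPKM or more in all 53 cells and Sox2 in 46. Hoxd4 was found at 1 FPKM or more in 86.8% of cells (exact 95% binomial interval 74.7% to 94.5%), Hoxd1 in 83.0% (70.2% to 91.9%) and Hoxd8 in 81.1% (68.0% to 90.6%). Hoxd9 was found in 75.5% (61.7% to 86.2%) and Hoxd3 in 69.8% (55.7% to 81.7%). The intervals of these 5 genes overlap, and their order is not resolved. Hoxd10 and Hoxd13 were each found in 11.3% (4.27% to 23.03%) and Hoxd11 in 7.55% (2.09% to 18.2%). The intervals cover counting error only and come from cells of 1 chip. Hoxd12 was found in 0 of 53 cells, which allows a share of up to 5.66% by the limit of 3 counts, and its exact 95% binomial interval reaches 6.72%.

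The median over cells was 35.97 FPKM for Hoxd8, with a highest cell of 261, and 22.7 for Hoxd1, with a highest cell of 191. It was 11.2 for Hoxd3, 9.06 for Hoxd4 and 6.97 for Hoxd9, and 0 for each of Hoxd10 to Hoxd13. The lowest cell was at 0 for every member. Where Hoxd10 was found, its level was 1.65 to 56.6 FPKM in 6 cells, while Hoxd11 did not exceed 3.05. Depth per cell is unknown, so a value of 0 may be a transcript that was not captured.

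**Figure D4:**
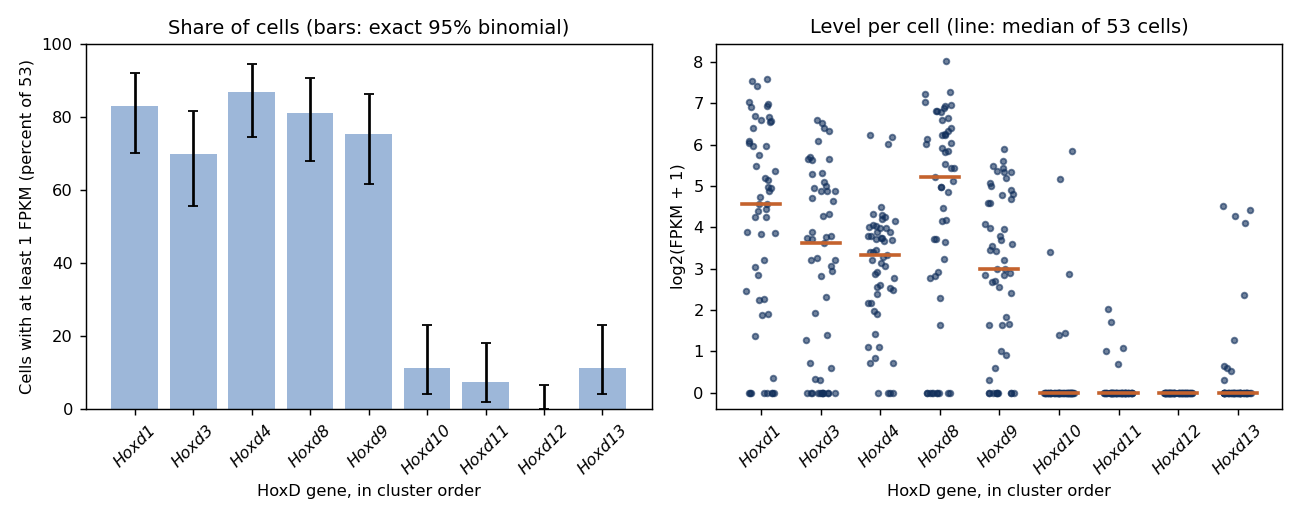
Left, percent of the 53 T+ Sox2+ cells of TS13 with at least 1 FPKM of each HoxD gene, with exact 95% binomial intervals. Right, log2(FPKM + 1) of each gene in each cell (points, spread sideways for view) with the median as a line; Hoxd1 to Hoxd9 were found in 69.8% to 86.8% of cells and Hoxd10 to Hoxd13 in 0 to 11.3%.

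HoxD genes combined in varied ways from cell to cell. All 5 of Hoxd1 to Hoxd9 were found in 19 cells, 4 in 19 cells, 3 in 11, and 2 or 1 in 2 cells each. Spearman's rho between pairs of these genes over the 53 cells of 1 chip ran from -0.18 to 0.30, with a median of 0.04 over the 10 pairs. The number of these genes found in a cell went with the number of all genes found in it, at a rho of 0.53, and the latter ran from 3912 to 8554. Any of Hoxd10, Hoxd11 and Hoxd13 was found in 14 cells, and 2 of them together in 2 cells, in both cases Hoxd10 with Hoxd13. Hoxd10 and Hoxd11 were found together in no cell, but in only 6 and 4 of the 53 cells at all. With so few cells, the lack of overlap is not read as exclusion. Hoxa10, Hoxa11 or Hoxc10 was found in 8 of those 14 cells and in 10 of the other 39, and the median number of genes found was 6054 and 5635 in the same order. The part of that difference in the counts was not tested.

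The level pattern of Hoxd8, the member with the highest median, was compared with that of 8492 genes over the 6 libraries of the knockout table. The most alike by Pearson's r of log2(FPKM + 1) were Sdc3 at 0.998, Bri3bp at 0.998, Frg1 at 0.994, Pank3 at 0.990 and Rnf14 at 0.990. Sdc3 ranged from 1.48 to 6.34 FPKM and Bri3bp from 13.8 to 18.3, narrower than the 11.1 to 55.5 of Hoxd8. The 6 libraries include both genotypes and 3 stages, and r is a description.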

How the data were processed

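RNA was measured in 9 bulk libraries and 53 single cells, and the chromatin samples of the series were not used here. The authors deposited FPKM, 1 value per gene symbol, in 3 tables. Build mm10 and the tools Cufflinks 2.2.1, Cuffdiff, Cuffnorm, TopHat2 2.1.0, Bowtie 1.1.2, Picard 1.103, SAMtools and bedtools 2.23.0 are named per the submitters' processing notes. What each did, and how libraries were scaled, is not given in the sources used here. No count model was run on these FPKM, and fold changes on log2(FPKM + 1) understate the change of low genes. Per the labels' protocols, the sort table used the TotalScript kit on RNA of few cells and the other bulk libraries used ScriptSeq.

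The members, gene lists and tests were chosen with earlier results of these data known. Counts over all genes used 19774 symbols, without small RNA genes, numbered gene models, RIKEN clones, mitochondrial genes, ribosomal protein pseudogenes, joined symbols, T, Sox2 and Tbx6. RIKEN clones were left out only after a first fit that kept them had been seen, and that fit is among the alternatives. The other alternatives were the pseudocount, the minimum, upper-quartile scaling, the stage term and leaving out T+ WT TS12.

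Differences within a table had 1 library per group and no test. The test was limma 3.58.1 in R 4.3.3 with an empirical Bayes trend, on genes that reached 1 FPKM in any of the 4 T+ libraries, adjusted by Benjamini-Hochberg and called at 0.05. Where labels name no separate cultures, p-values measure the spread between these samples only. Depth was estimated from whole-fragment steps in low values. Of the 55 capture sites named in the labels, 53 cells are in the table. Named genes are the 9 members, genes of the neighbour, caudal factor and TALE lists, Hox paralogues, and the 5 genes most alike to the member with the highest median. The motifs, and the genes T, Sox2, Mesp2, Neurog2, Olig2, Nkx6-1, Slc4a1, Gata1, Gata4, Hand1, Foxf1, Tbx4, Hba-x, Hbb-bh1, Hbb-y, Kdr and Etv2, were named after values or sequences had been seen. The same holds for Sox1, Hes5, Noto and Nog.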

Additional observations from a re-analysis of the deposited data

Results flagged for a closer look

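Hoxd3 had T KO minus WT differences of opposite sign at the 2 stages, -0.38 at TS12 and 0.35 at TS13 on the log2(FPKM + 1) scale. For 3 genes the stage difference, TS13 minus TS12, had opposite signs in WT and T KO T+ cells. It was 0.0388 and -0.60 for Hoxd1, -0.0721 and 0.66 for Hoxd3, and 0.63 and -0.22 for Hoxd9. Each difference is between single libraries, 1 per group, and the differences between the effects were not tested. The values of Hoxd3 are uncertain because its span overlaps Hoxd4 and the antisense RNA Hoxd3os1.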

How the results depend on the processing

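Of 30 values under other settings of HoxD counts above 0, 22 stayed within 1.5 times the reported count and 8 did not. Of 68 values of counts reported as 0, 66 stayed at 0. With a pseudocount of 5, the counts of genes 2-fold higher went from 2 to 0 in T+ Sox2+ against Sox2+ cells, from 2 to 1 in T+ against Sox2+ cells and from 1 to 0 in WT from TS12 to TS13, and the count lower in T KO at TS13 went from 3 to 0. With a minimum of 5 FPKM the same 4 counts were 0, 1, 0 and 1. The count lower in T KO at TS12 went from 0 to 1 with a pseudocount of 0.1, and to 3 with T+ WT TS13 as control, chosen after seeing the data. In limma, none of the HoxD genes passed the threshold under any of the 8 other settings, and 53 of 54 values kept their sign; the other is Hoxd3 at 0.02 without T+ WT TS12 and the stage term. Over all genes, limma called 64 that rose and 89 that fell, against 28 and 58 with a pseudocount of 5, 5 and 27 without the stage term, 6 and 15 without both T+ WT TS12 and the stage term, 0 and 0 with no minimum, and 56 and 82 with RIKEN clones kept, the setting first run. The cause was not tested. At 5 FPKM in place of 1, Hoxd4 was found in 66.0% of cells and Hoxd11 in 0. The stage term of the limma fit pairs WT with T KO libraries, and no replicate block was fitted because the labels give the bulk libraries no replicate numbers. Low values limit Hoxd10 to Hoxd13 in T+ cells of the knockout table, where 4.03 FPKM was the highest.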
